A study of Mus musculus with 721 samples.

Results

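Cholesterol synthesis was followed in single cells of early mouse embryos through Srebf2 and 7 enzymes of the pathway, Hmgcs1, Idi1, Fdps, Fdft1, Sqle, Lss and Cyp51. The members were taken by their symbols, and each has 1 of the 24483 gene rows of the count table. All embryos were wild type and of the strain C57Bl/6Babr, and no group carried a treatment or an engineered allele. The study picked single cells on 4 embryonic days, from E3.5 to E6.5 (some of the last titled E6.75), to follow lineage choice up to early gastrulation, with trophectoderm removed at E3.5 and E4.5, the epiblast separated from visceral endoderm at E5.5 and extra-embryonic tissue dissected away at E6.5. The labels separate 37 embryos among the 721 cells, and the embryo so defined is the replicate in every comparison here. This counts the unnumbered cells of E3.5 as 1 embryo, and the E6.5 embryos with no plate name, which bear numbers that recur on plate P1, as embryos of their own. The study gives a smaller total, so the n at E6.5 may exceed the number of animals.

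Cells make cholesterol from acetyl-CoA through the mevalonate pathway. Hmgcs1 forms HMG-CoA, Idi1 and Fdps build farnesyl diphosphate, Fdft1 joins a pair of farnesyl groups into squalene, Sqle and Lss turn squalene into lanosterol, and Cyp51 removes a methyl group from lanosterol on the way to cholesterol. Srebf2 encodes the transcription factor SREBP2, which is held in the endoplasmic reticulum by Scap and the Insig proteins while sterols are plentiful and is cut and released to the nucleus when they are scarce. There it activates the genes of this pathway, so the level of the Srebf2 transcript does not by itself give the activity of the factor.

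Cells were sorted into classes by clustering without any gene of the sterol and fatty acid lists and without Cer1, and the clusters were named from markers. This gave 99 cells of the inner cell mass (ICM) from 10 embryos at E3.5, 23 epiblast-like and 82 primitive endoderm-like (PrE) cells from 5 embryos at E4.5, and 41 endoderm-like cells at E6.5, while the epiblast-like cells of E5.5 and E6.5 made up 35.9% and 25.5% of all cells. For each embryo the cells of a class were pooled into 1 sum of counts where there were at least 3, which gave 10, 5, 5, 7, 8 and 13 sums, in that order, of 1165967 to 49484352 counts. Levels are TMM-normalized counts per 1000000 counts (CPM) of these sums. Endoderm markers summed to 14769 to 21728 CPM in PrE and 13227 to 33158 CPM in E6.5 endoderm, against 1971 to 3689 CPM in E4.5 epiblast and 732 to 6892 CPM in E6.5 epiblast. Primitive streak markers summed to 370 to 2687 CPM in E6.5 endoderm and to 67.9 to 693 CPM in E6.5 epiblast. Among them Aplnr, Mesp1, Mesp2 and Tbx6 were at 0 in every E6.5 endoderm sum. The part of these markers in the results at E6.5 was not tested. Cells labelled as double, wells that held a pair of cells, made up 31 of the PrE-like cells. Every E4.5 cell was placed in either lineage, while the study set aside a small group of E4.5 cells with markers of both. A PrE-like cluster of 17 cells had a lower mean of endoderm markers than the other (log2 5.37 against 7.19). Its mean of epiblast markers was 2.78 against 2.83. Which class holds the cells that the study set aside was not tested. Markers of trophoblast summed to 283 to 1089 CPM in the ICM against 64.1 to 154.5 CPM in E4.5 PrE and 171.5 to 416 CPM in E4.5 epiblast, and their part in the differences from E3.5 was not tested. In 1 E6.5 embryo the endoderm-like cells carried blood and decidua markers at 1603 CPM. Each stage was collected in embryos of its own, so stage and collection cannot be told apart, and fewer cells of a type and less RNA per cell cannot be told apart within a sum.

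The promoters of 5 members are held in the RefSeq promoter set (GRCm38.p6), and 4 are shown over the 250 bases before the RefSeq start because these genes are the regulator itself (Srebf2), the enzyme at the entry of the pathway (Hmgcs1) and enzymes of the last steps measured here (Lss and Cyp51). Capitals mark TCACCCCA, part of the sterol regulatory element that SREBP proteins bind, and CCAAT, the site of NF-Y, on either strand.
Srebf2 (chr15:82147019-82147268, plus strand): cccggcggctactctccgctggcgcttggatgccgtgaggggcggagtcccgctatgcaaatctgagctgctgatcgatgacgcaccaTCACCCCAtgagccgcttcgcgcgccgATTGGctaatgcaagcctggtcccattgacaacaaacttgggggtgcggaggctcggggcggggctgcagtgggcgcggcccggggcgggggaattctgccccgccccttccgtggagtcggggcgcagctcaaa
Hmgcs1 (chr13:119690101-119690350, plus strand): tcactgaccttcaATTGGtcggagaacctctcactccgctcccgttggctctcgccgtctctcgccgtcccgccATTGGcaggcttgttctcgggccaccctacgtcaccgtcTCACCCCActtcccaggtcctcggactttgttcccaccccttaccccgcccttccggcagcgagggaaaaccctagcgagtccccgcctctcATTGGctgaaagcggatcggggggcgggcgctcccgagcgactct
Lss (chr10:76531355-76531604, plus strand): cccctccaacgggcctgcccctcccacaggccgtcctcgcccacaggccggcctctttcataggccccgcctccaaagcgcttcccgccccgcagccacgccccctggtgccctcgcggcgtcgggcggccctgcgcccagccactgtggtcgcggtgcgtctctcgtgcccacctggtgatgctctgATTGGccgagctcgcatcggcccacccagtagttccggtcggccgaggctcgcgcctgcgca
Cyp51 (chr5:4104698-4104947, minus strand): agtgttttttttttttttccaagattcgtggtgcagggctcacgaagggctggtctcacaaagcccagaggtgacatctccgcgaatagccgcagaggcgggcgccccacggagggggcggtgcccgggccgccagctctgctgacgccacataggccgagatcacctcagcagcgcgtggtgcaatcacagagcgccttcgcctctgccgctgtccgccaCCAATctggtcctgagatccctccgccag
TCACCCCA stood in the promoters of Srebf2 and Hmgcs1, 2 of the 5, against 1.34% of 32851 mouse promoters of the same length. CCAAT stood in all 5, with 3 copies in Hmgcs1, against 33.8% of all promoters. The E-box CACGTG, searched as well, was in none of the 5 and in 6.02% of all. The matches do not overlap each other, and these are descriptions of letters in this window.

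Levels of the members by class are given first. Srebf2 was highest on average in E4.5 PrE, at 106.2 ± 32.3 CPM (SD, n = 5), followed by E4.5 epiblast at 88.9 ± 45.7 (n = 5), E5.5 epiblast at 59.9 ± 13.6 (n = 8), E6.5 endoderm at 47.5 ± 57.9 (n = 7), E6.5 epiblast at 44.9 ± 24.7 (n = 13) and the ICM at 41.8 ± 36.8 (n = 10). The ranges of neighbours in this order overlapped throughout. E4.5 PrE also had the highest mean of 6 of the 7 enzymes, and Hmgcs1 was the exception, with 150.2 ± 68.4 CPM in E6.5 endoderm, 149.5 ± 72.1 in E4.5 epiblast and 141.9 ± 84.3 in E4.5 PrE. E6.5 endoderm had the lowest mean of Idi1, Fdps, Fdft1 and Sqle, the ICM that of Srebf2, Hmgcs1 and Cyp51, and E6.5 epiblast that of Lss. Per kilobase of merged exons, the scale on which genes can be compared with each other, Fdps was the most abundant member in the ICM, at 124.2 CPM per kb, and Idi1 and Cyp51 the least, at 2.87 and 2.67.

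**Figure D1:**
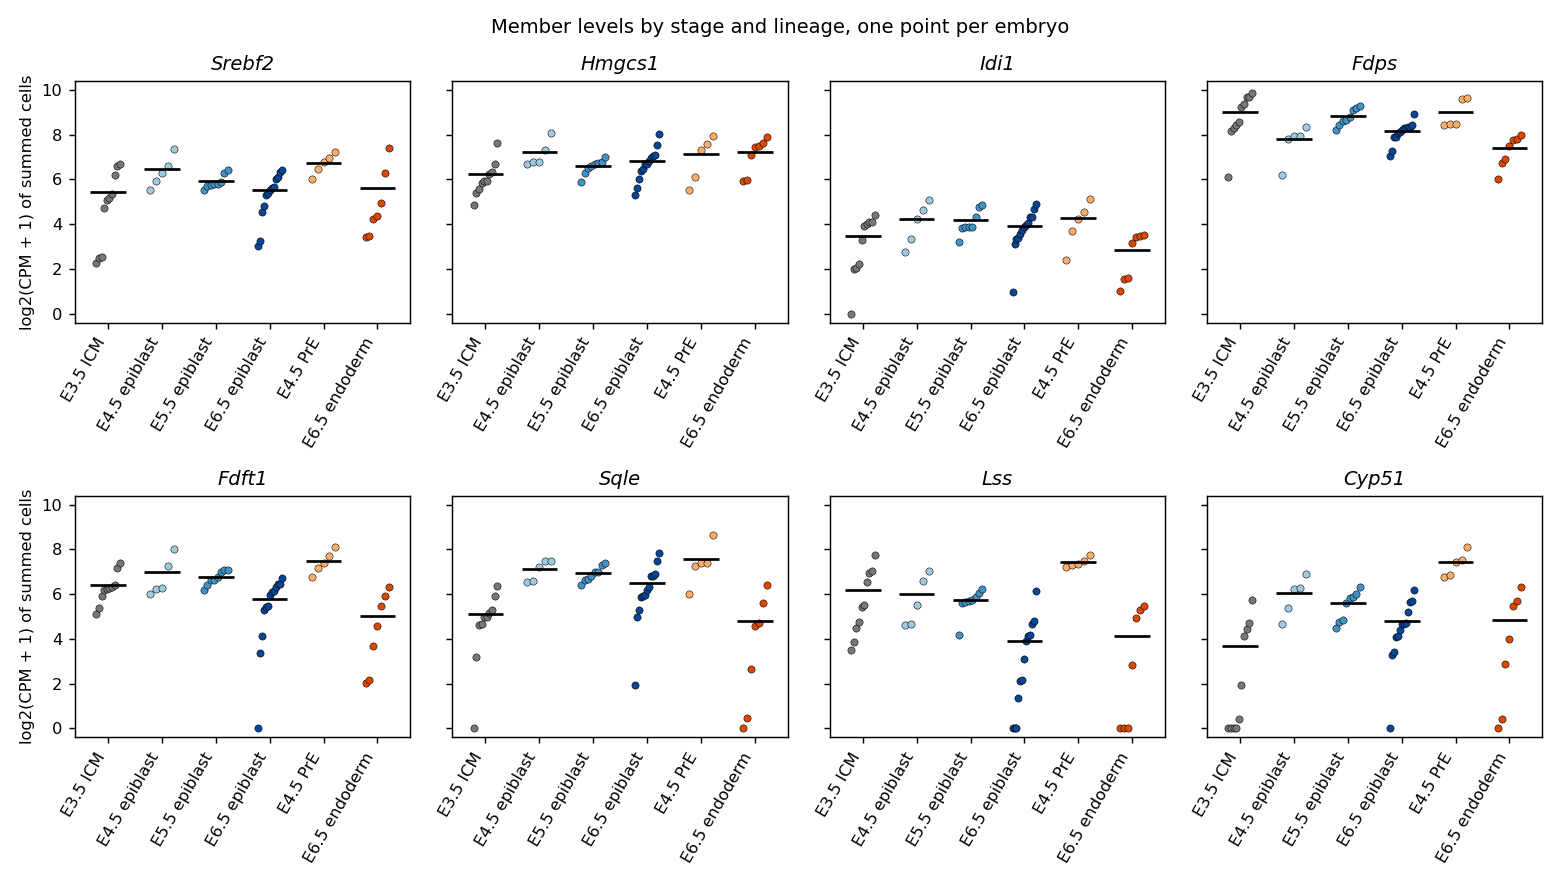
Levels of the 8 members as log2(CPM + 1) of summed counts, with 1 point per embryo, by stage and lineage; black bars mark the mean CPM of the class on the same scale. Cyp51 lies between 109.4 and 278 CPM in the 5 PrE sums and at 0 in 4 of the 10 ICM sums.

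Between the ICM and E4.5 PrE, the genes for squalene epoxidase and lanosterol demethylase rose. Sqle, which catalyses the first oxygen-requiring step, was at 0 to 81.6 CPM in the ICM (median 30.5) and at 64.2, 153.4, 166.3, 167.1 and 405 CPM in the 5 PrE sums. It rose by a log2 fold change of 2.52 (SE 0.68, adjusted p = 0.00516 by edgeR's quasi-likelihood test). Cyp51 was at 0 to 52.6 CPM in the ICM (median 1.60) and at 109.4, 115.97, 173.6, 185.8 and 278 CPM in PrE, so that the groups did not overlap. Its log2 fold change was 3.85 (SE 0.95, adjusted p = 0.00244). These 2 of 8 members rose past the limits (a log2 fold change beyond 1 in either direction, with an adjusted p no higher than 0.05), against 13.1% of the 13520 genes tested that rose and 18.6% that passed in either direction. Srebf2 had a log2 fold change of 1.34 (SE 0.57, adjusted p = 0.0919), and Fdps one of 0.00 (SE 0.35, adjusted p = 1). Hmgcs1 had 0.93, Idi1 0.85, Fdft1 1.11 and Lss 1.27 (adjusted p 0.0772 to 0.432). The median over the members was 1.19, against 0.17 over all genes tested.

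Between the ICM and E4.5 epiblast, 3 members rose and 1 fell, against 20.8% of genes that passed in either direction. Sqle went from the ICM values above to 92.3, 94.9, 146.1, 176.1 and 179.99 CPM, with no overlap and a log2 fold change of 2.05 (SE 0.68, adjusted p = 0.0224). Cyp51 was at 24.5, 40.3, 73.8, 75.5 and 117.5 CPM in epiblast, a log2 fold change of 2.47 (SE 0.93, adjusted p = 0.0479). Hmgcs1, which forms HMG-CoA, was at 28.5 to 196.9 CPM in the ICM (median 59.9) and at 100.9, 108.2, 108.6, 157.9 and 272 CPM in epiblast, and its log2 fold change of 1.01 (SE 0.38, adjusted p = 0.0499) lay at both limits. Fdps, which makes farnesyl diphosphate for sterols and for protein prenylation, went the other way. It was at 68.1 to 928 CPM in the ICM (median 492) and at 71.6, 222.6, 244.999, 247.4 and 329 CPM in epiblast, and it fell by 1.23 on the log2 scale (SE 0.37, adjusted p = 0.0126). Srebf2 had a log2 fold change of 1.08, Idi1 0.84, Fdft1 0.59 and Lss -0.17 (adjusted p 0.18 to 0.955). The comparisons of both E4.5 lineages share the ICM sums. Leaving out E4.5 embryos 1 to 5 in turn gave 3, 2, 1, 3 and 2 members. The rise of Cyp51 passed in 10 of 21 alternatives and with none of the 5 embryos left out (adjusted p 0.0516 to 0.132), that of Hmgcs1 in 12, and Sqle and Fdps in 18 each.

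At E4.5 no member differed between PrE and epiblast past the limits in edgeR's test without pairing (0 of 8, with 1 at an unadjusted p under 0.05, against 6.48% of genes), and 1 did in DESeq2. That member was Fdps, at 343, 352, 358, 771 and 795 CPM in PrE against the epiblast values above, higher in PrE in 5 of 5 embryos and with no overlap. Its log2 fold change was 1.23 (SE 0.41, adjusted p = 0.0581), and with the embryo as a replicate block, which compares both lineages within the same embryo, it was 1.28 (SE 0.26, adjusted p = 0.00616). Lss, which closes the sterol rings, was at 148.2, 159.5, 163.6, 176.4 and 213.9 CPM in PrE and at 23.5, 24.4, 45.2, 94.2 and 130.2 CPM in epiblast. These groups did not overlap either and Lss was higher in PrE in 5 of 5 embryos, yet the log2 fold change of 1.44 had an SE of 1.09 (adjusted p = 0.511, and 0.483 in the paired fit). Cyp51, with the PrE and epiblast values above, was higher in PrE in 5 of 5 embryos as well, the groups overlapped, and its log2 fold change was 1.38 (SE 1.13, adjusted p = 0.556, and 0.428 in the paired fit). Srebf2 was at 64.3, 87.02, 107.5, 124.6 and 147.5 CPM in PrE and at 45.6, 61.002, 78.5, 95.996 and 163.3 CPM in epiblast, with a log2 fold change of 0.26 (SE 0.69, adjusted p = 0.913). Hmgcs1 had -0.07, Sqle 0.47, Idi1 0.01 and Fdft1 0.52 (adjusted p 0.753 to 1).

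Along the epiblast the members did not pass the limits at either step. From E4.5 to E5.5, 0 of 8 passed (1 at an unadjusted p under 0.05, 0 in DESeq2), against 5.54% of genes. Fdps had the largest difference, from the E4.5 values above to 295 to 618 CPM in 8 E5.5 sums (median 427), a log2 fold change of 1.03 (SE 0.38, adjusted p = 0.0938). Srebf2 had -0.57, Hmgcs1 -0.63, Sqle -0.18, Idi1 -0.08, Fdft1 -0.22, Lss -0.29 and Cyp51 -0.48 (adjusted p 0.417 to 0.984). From E5.5 to E6.5, 0 of 8 passed as well (3 at an unadjusted p under 0.05, 0 in DESeq2), against 8.14% of genes. Lss was at 16.9 to 73.8 CPM at E5.5 (median 51.9) and at 0 to 70.5 CPM in the 13 sums at E6.5 (median 7.63), with a log2 fold change of -1.88 (SE 0.75, adjusted p = 0.104). That difference passed with sums of at least 5 cells (-2.40, adjusted p = 0.0107) and with same-numbered E6.5 embryos merged (-2.27, adjusted p = 0.0385). Srebf2 was at 45.05 to 84.1 CPM at E5.5 (median 54.9) and at 7.21 to 84.04 CPM at E6.5 (median 45.6), where 6 of the 13 sums lay below the lowest E5.5 sum. Its log2 fold change was -0.42 (SE 0.48, adjusted p = 0.666), with -0.74 on plates P1 to P3 (adjusted p = 0.345) and 0.11 on the sums with no plate name (adjusted p = 0.989). Fdps had -0.68, Fdft1 -0.98, Hmgcs1 0.24, Sqle -0.46, Idi1 -0.26 and Cyp51 -0.82 (adjusted p 0.126 to 0.843).

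Between E4.5 PrE and E6.5 endoderm 4 of 8 members fell and none rose past the limits, against 7.84% of genes that fell and 12.4% that passed in either direction. Lss went from 148.2 to 213.9 CPM in PrE to 0, 0, 0, 6.25, 29.4, 38.1 and 42.9 CPM in endoderm. No endoderm sum reached the lowest PrE sum, and Lss fell by 3.36 on the log2 scale (SE 1.03, adjusted p = 0.0233). Sqle went from 64.2 to 405 CPM to 0, 0.385, 5.29, 22.5, 25.003, 47.9 and 85.1 CPM and fell by 2.84 (SE 0.77, adjusted p = 0.0097). Fdft1, the squalene synthase, was at 108.3, 141.4, 165.6, 204.8 and 275 CPM in PrE and at 3.09, 3.47, 11.7, 23.003, 43.8, 59.1 and 78.0003 CPM in endoderm. It fell by 2.50 (SE 0.62, adjusted p = 0.00446), again with no overlap. Fdps fell by 1.66 (SE 0.37, adjusted p = 0.00194), to 63.01, 106.6, 121.2, 179.6, 213.4, 224.4 and 255.3 CPM, all below the 5 PrE sums. Fdps, Fdft1, Sqle and Lss act one after the other, from farnesyl diphosphate to lanosterol. Whether they fell more than Idi1 and Cyp51, the members on either side, was not tested.

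The other members did not pass. Cyp51 was at 0, 0.334, 6.29, 14.8, 43.4, 51.5 and 80.2 CPM in endoderm, below all PrE sums, with a log2 fold change of -2.62 (SE 1.05, adjusted p = 0.0865). Hmgcs1, at the entry of the pathway, was at 60.1, 62.2, 135.5, 175.03, 179.03, 198.2 and 241.2 CPM, within the PrE range of 45.2 to 247.6 CPM, and its log2 fold change was 0.08 (SE 0.42, adjusted p = 0.945). Idi1 had a log2 fold change of -1.56 (SE 0.75, adjusted p = 0.166), from 4.33 to 34.1 CPM to 1.04 to 10.42 CPM. The median over the members was -2.08, against -0.11 over all genes tested.

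**Figure D2:**
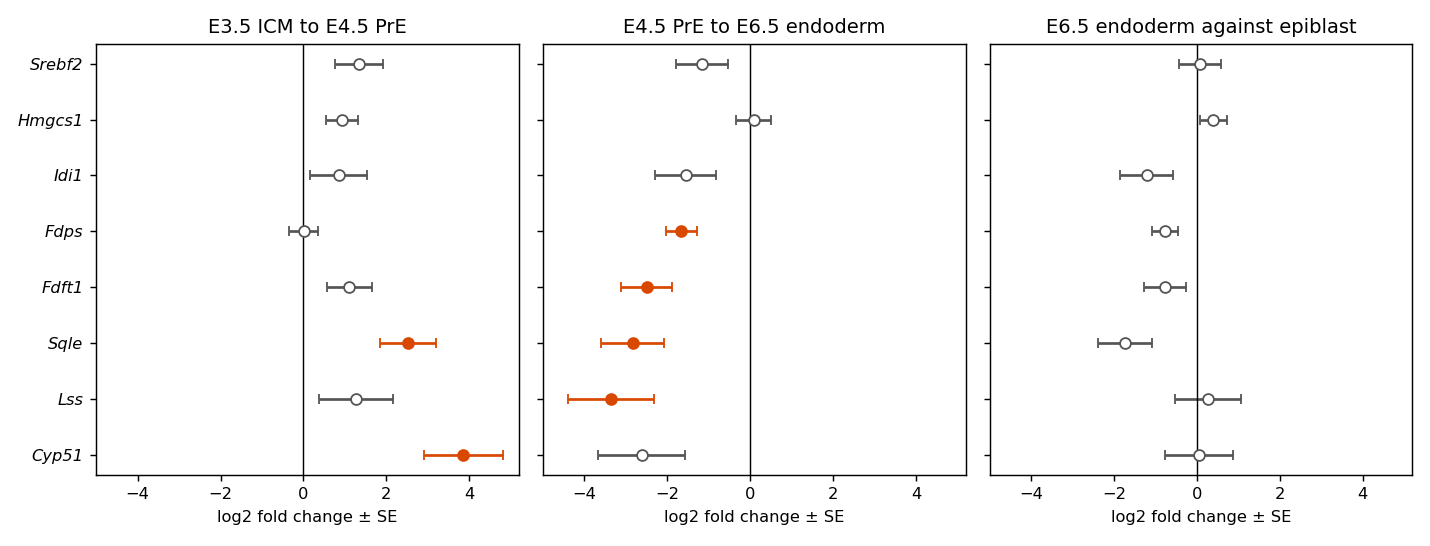
Log2 fold changes of the members with their SE in 3 comparisons; filled points passed the limits and open points did not. In the middle panel, E6.5 endoderm over E4.5 PrE, the filled points are Fdps, Fdft1, Sqle and Lss, and Hmgcs1 lies at 0.08.

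Srebf2 and Hmgcs1 in E6.5 endoderm differed with the plate of the cells. The 5 embryos on plates P1 to P3 were at 9.69, 10.2, 18.1, 19.7 and 29.6 CPM, and the 2 embryos titled E6.75, which have no plate name, at 77.8 and 167.4 CPM. Over all 7 the log2 fold change from PrE was -1.16 (SE 0.63, adjusted p = 0.235), and on plates P1 to P3 alone it was -2.60 (adjusted p = 0.00733) and on the sums with no plate name 0.17 (adjusted p = 0.975). Hmgcs1 was at 185.8 ± 38.4 CPM on plates P1 to P3 (n = 5) and at 60.1 and 62.2 CPM without a plate name, and its log2 fold change from PrE turned from 0.39 (adjusted p = 0.606) to -1.26 (adjusted p = 0.3) between these sums. On the sums with no plate name alone, 1 of the 8 members passed, Sqle, and the log2 fold changes of Fdps (-1.71, adjusted p = 0.122), Fdft1 (-1.84, adjusted p = 0.0607) and Lss (-2.85, adjusted p = 0.0974) were lower than 0 with fewer sums tested. Cyp51 was at 14.6 ± 21.5 CPM on plates P1 to P3 (n = 5) and at 43.4 and 80.2 CPM without a plate name. Age and plate cannot be told apart in these 7 sums. The share of Cer1-positive cells, compared further below, differed with the plate too. Over all endoderm-like cells, also those outside the sums, 20 on plates P1 to P3 were positive and 9 negative at a limit of 10 CPM of Cer1. Without a plate name 3 were positive and 9 negative, and these include cells titled E6.5. The part of Cer1 status in these differences was not tested. The 4 falls also passed without the embryo with haemoglobin counts, and with sums of at least 5 cells that of Lss did not (-2.67, adjusted p = 0.0673). Reads were counted without strand, and 18.3% of the merged exon bases of Fdft1 are shared with Ctsb on the opposite strand, so counts of this gene pair cannot be separated fully. Ctsb was at 317 ± 106.8 CPM in PrE and at 789 ± 606 CPM in endoderm, and the part of shared reads in the counts of Fdft1 was not tested. Fdps shares 26.7% of its exon bases with the overlapping gene model Gm43738 on the same strand. Cyp51 shares 3.76% with Akap9 on the opposite strand. Akap9 was at 5.02 ± 11.8 CPM in the ICM, 48.7 ± 18.8 CPM in PrE and 123.5 ± 55.5 CPM in E6.5 endoderm. The part of Akap9 in the changes of Cyp51 was not tested. Hmgcs1 (12.1%), Idi1 (9.22%) and Lss (3.53%) share exon bases with other gene models as well.

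Within E6.5 the members did not pass between endoderm and epiblast (0 of 8, with 2 at an unadjusted p under 0.05 and 1 in DESeq2), against 15.6% of genes. Sqle was at 2.82 to 229.1 CPM in the 13 epiblast sums (median 72.9) and its log2 fold change was -1.73 (SE 0.65, adjusted p = 0.0551). Fdps was at 130.1 to 481 CPM in epiblast (median 298), with a log2 fold change of -0.78 (SE 0.31, adjusted p = 0.0711). Srebf2 had one of 0.08 (SE 0.51, adjusted p = 0.947), Hmgcs1 0.40, Idi1 -1.21, Fdft1 -0.78, Lss 0.26 and Cyp51 0.05 (adjusted p 0.18 to 0.986 for these 5). The difference between lineages was itself compared between E4.5 and E6.5 in 1 interaction term. Fdps passed, with a difference of log2 fold changes of -2.01 (SE 0.52, adjusted p = 0.0203), 1 of 8 members against 3.85% of genes, where the median over all genes was -0.40. It went from 2.35-fold higher in PrE than in epiblast at E4.5 to 1.71-fold lower in endoderm than in epiblast at E6.5. Without E4.5 embryo 4 its adjusted p was 0.0732, and with the replicate block it was 0.00488. Sqle had an interaction of -2.20 (SE 1.03, adjusted p = 0.244), and Srebf2 had -0.18, Hmgcs1 0.47, Idi1 -1.22, Fdft1 -1.29, Lss -1.18 and Cyp51 -1.32 (adjusted p 0.454 to 0.988).

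The rest of the pathway was followed in 4 lists, of which 12 of 14 other sterol enzymes, 5 of 6 SREBP regulators, 14 of 14 genes of sterol uptake, transport, storage and efflux, and 10 of 10 genes of fatty acid synthesis have a row. From E4.5 PrE to E6.5 endoderm, 3 of 12 other sterol enzymes fell and none rose, against 7.84% of all genes that fell and 12.4% that passed in either direction. These were Acat2, which condenses acetyl-CoA (log2 fold change -1.55, adjusted p = 0.0264), Mvd, which makes isopentenyl diphosphate (-3.10, adjusted p = 0.0265), and Msmo1, a demethylase after Cyp51 (-2.77, adjusted p = 0.012). Of the SREBP regulators 1 of 5 fell, Insig1, itself a target of SREBP, from 215.9 ± 67.02 CPM (n = 5) to 25.7 ± 23.1 CPM (n = 7), with a log2 fold change of -3.07 (adjusted p = 0.000725). Of the 13 genes of uptake, transport, storage and efflux tested, 2 rose and 1 fell. Lipa, the lysosomal lipase that frees cholesterol from esters, rose by a log2 fold change of 4.81 (adjusted p = 0.0111), and the sterol exporter Abcg1 rose by 5.90 (adjusted p = 0.00254), from 0.188 to 12.2 CPM. The endoderm mean of Abcg1 rests on few sums. When endoderm was split by Cer1 as below, Abcg1 had no count in 6 of 8 negative and 7 of 9 positive sums. Of the genes of fatty acid synthesis 2 of 10 fell, Fads2 and Me1, by 5.13 and 3.39 (adjusted p = 0.00976 and 0.00159). The medians of the lists were -0.69, -0.45, 1.01 and -1.31, in the order given above.

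**Figure D3:**
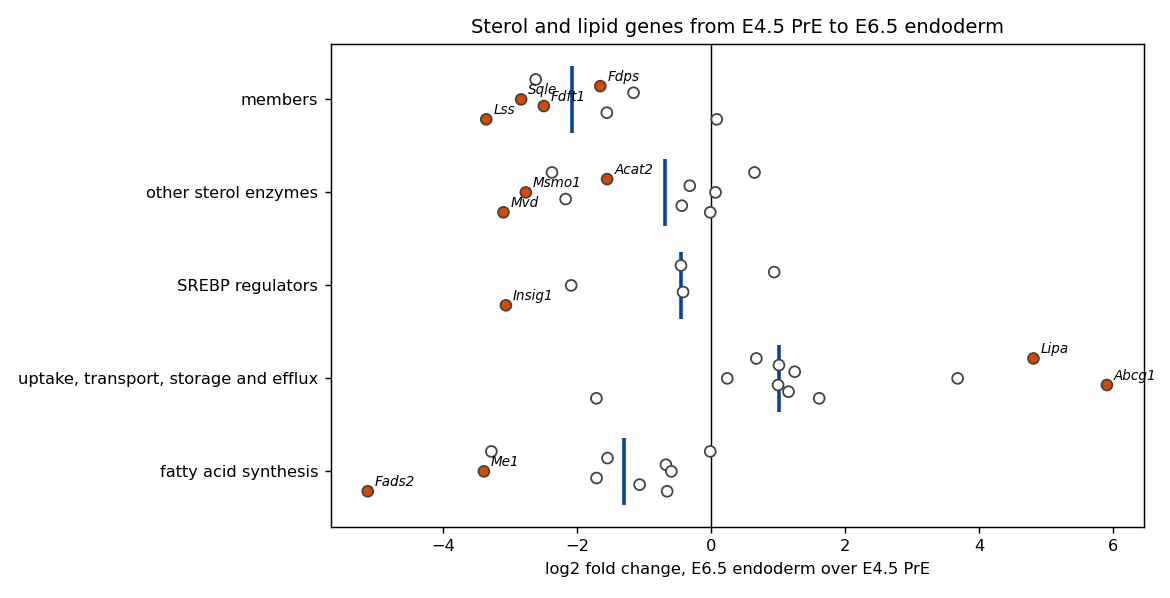
Log2 fold changes of E6.5 endoderm over E4.5 PrE for genes of each list; filled points passed the limits and are named, and blue bars mark the median over all genes tested in the list, a few of which are not drawn. All filled points of the members, the other sterol enzymes and the SREBP regulators lie below 0, and Lipa and Abcg1 lie above it.

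In the other comparisons of the same fit, 12, 5, 13 and 10 genes of the lists were tested, in the order given above. From the ICM to PrE 11 list genes rose and 2 fell, against 13.1% of all genes that rose and 18.6% that passed in either direction. Msmo1 (log2 fold change 1.91, adjusted p = 0.0374), Insig1 (1.62, adjusted p = 0.029) and Srebf1, the gene of SREBP1 (2.44, adjusted p = 0.0293), rose. Among the genes of transport and storage, so did Stard4 (2.97), Soat2 (8.39) and Lipa, the last from 0 counts in the ICM to 3.29 CPM, which is at least 64.9-fold higher (bound set at 3 counts in all ICM sums together). Abcg1 fell by 5.84. In fatty acid synthesis Acaca, Fasn and Fads2 rose and Elovl6 fell. From the ICM to epiblast, 1 list gene rose, and Acat2, Soat1, Elovl6 and Me1 fell, against 20.8% of all genes that passed in either direction.

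At E4.5, PrE was above epiblast for Acat2 (1.74, adjusted p = 0.0425) and for 4 genes of transport and storage, among them Stard4, which carries cholesterol between membranes (4.32, adjusted p = 0.0399), and Soat1, which esterifies it (4.16, adjusted p = 1.02e-05). Soat2 and Lipa were the other 2, Lipa with 0 counts in epiblast and at least 17.6-fold higher in PrE, and Me1 was higher as well (3.87, adjusted p = 0.00336). Over all genes 6.48% passed in either direction. From E4.5 to E5.5 epiblast 3 list genes rose, against 5.54% of all genes that passed in either direction. Among them, Soat1 rose by 2.88 (adjusted p = 0.000609), and Lipa went from 0 counts to 4.15 CPM, at least 22.3-fold higher. From E5.5 to E6.5 epiblast 2 list genes rose, among them Soat2 (3.94, adjusted p = 0.0141), against 8.14% of all genes that passed in either direction.

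At E6.5, 0 of 12 other sterol enzymes and 0 of 5 regulators passed between endoderm and epiblast. Of the genes of uptake, transport, storage and efflux 9 of 13 did, against 15.6% of all genes. Of these 9 genes 3 were lower in endoderm, among them Nr1h2, a sterol-sensing receptor (-1.57, adjusted p = 0.0408). The other 6, Stard4 (2.85), Npc1 (1.68), Npc2 (1.44), Soat1 (1.29), Soat2 (3.83) and Abca1 (4.08), were higher in endoderm. Npc1 and Npc2 carry cholesterol out of the lysosome, Soat1 and Soat2 store it as esters, and Abca1 exports it. When endoderm was split by Cer1 as below, Abca1 had no count in 4 of 8 negative and 5 of 9 positive sums. In fatty acid synthesis Fads2 was lower in endoderm (-5.10, adjusted p = 0.00567). The interaction passed for 4 list genes, among them Soat1 (-2.87), Fads2 and Me1 (-3.83), against 3.85% of all genes.

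Srebf2 was also compared between Cer1-positive and Cer1-negative E6.5 endoderm, since Cer1 marks the anterior visceral endoderm. The study names Srebf2 among genes of the cells without anterior markers from these same libraries, so its direction here is not independent evidence. At a limit of 10 CPM of Cer1, 23 cells from 9 embryos were positive and 18 cells from 8 embryos negative, with 5 embryos in both groups. The highest negative cell was at 7.68 CPM and the lowest positive cell at 27.8 CPM of Cer1. In negative sums Lefty1 reached 312.5 CPM and Dkk1 2709 CPM (medians 0 and 0.738 CPM). Dkk1 averaged 347.1 CPM in negative and 209.1 CPM in positive sums, where its median was 39.02 CPM. Hhex and Lefty1 averaged 17.2 and 44.6 CPM in negative and 102.9 and 122.9 CPM in positive sums. Hesx1 was at 0 in every negative sum. The split is by Cer1 alone, and whether all negative cells are non-anterior was not tested. Srebf2 sums were at 27.1 to 219.1 CPM in the 8 negative embryos (median 91.2) and at 0 to 76.96 CPM in the 9 positive embryos (median 9.46). The groups overlapped, and 17 of 18 negative cells and 13 of 23 positive cells had a count. The log2 fold change was -2.47 (SE 0.99, unadjusted p = 0.0204, adjusted p = 1) in a test of 7094 genes, of which 0.0141% passed, which is Cer1 itself. With the embryo as a replicate block it was -3.68 (SE 1.96, adjusted p = 1).

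Within the 5 embryos that held cells of both kinds, Srebf2 was lower in the positive cells each time. It was at 29.1 CPM in negative and 11.5 CPM in positive cells of embryo 2 on plate P1. On plate P2 it was at 27.1 and 4.24 CPM in embryo 5 and at 39.6 and 0 CPM in embryo 6. In the embryos titled E6.75 it was at 219.1 and 76.96 CPM and at 99.4 and 0 CPM. These sums rest on 1 to 4 cells each. The plates were unequally spread, with 9 of 18 negative and 3 of 23 positive cells carrying no plate name. On plates P1 to P3 the means were 70.4 ± 58.7 CPM in negative (n = 5) and 7.83 ± 7.46 CPM in positive sums (n = 6), and without a plate name 136.3 ± 71.9 CPM (n = 3) and 36.4 ± 38.7 CPM (n = 3). The log2 fold changes within these batches were -3.12 and -1.84 (adjusted p = 0.999 in both). When any Cer1 count made a cell positive, the log2 fold change was -0.71.

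None of the 5 enzymes tested passed between the Cer1 groups either (unadjusted p 0.301 to 0.733, and 0 members in DESeq2). Hmgcs1 was at 133.5 CPM in positive and 113.7 CPM in negative sums on average, Fdps at 203.5 and 128.7 CPM and Fdft1 at 31.7 and 40.96 CPM. Sqle had a log2 fold change of 0.72 (SE 1.53) and Cyp51 one of 0.71 (SE 1.45). Lss and Idi1 were below the filter on low counts and were not tested. Idi1 was higher in the positive cells of 5 of 5 shared embryos, at levels of 0 to 33.4 CPM, and on average at 9.18 CPM in 9 positive and 3.62 CPM in 8 negative sums. Among the same 5 embryos the positive cells were higher in 3 for Hmgcs1, Fdps and Cyp51 (with 1 tie for Cyp51), in 2 for Fdft1 and Sqle, and in 1 for Lss (lower in 3, with 1 tie), and whether Srebf2 differed from the enzymes in this was not tested.

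**Figure D4:**
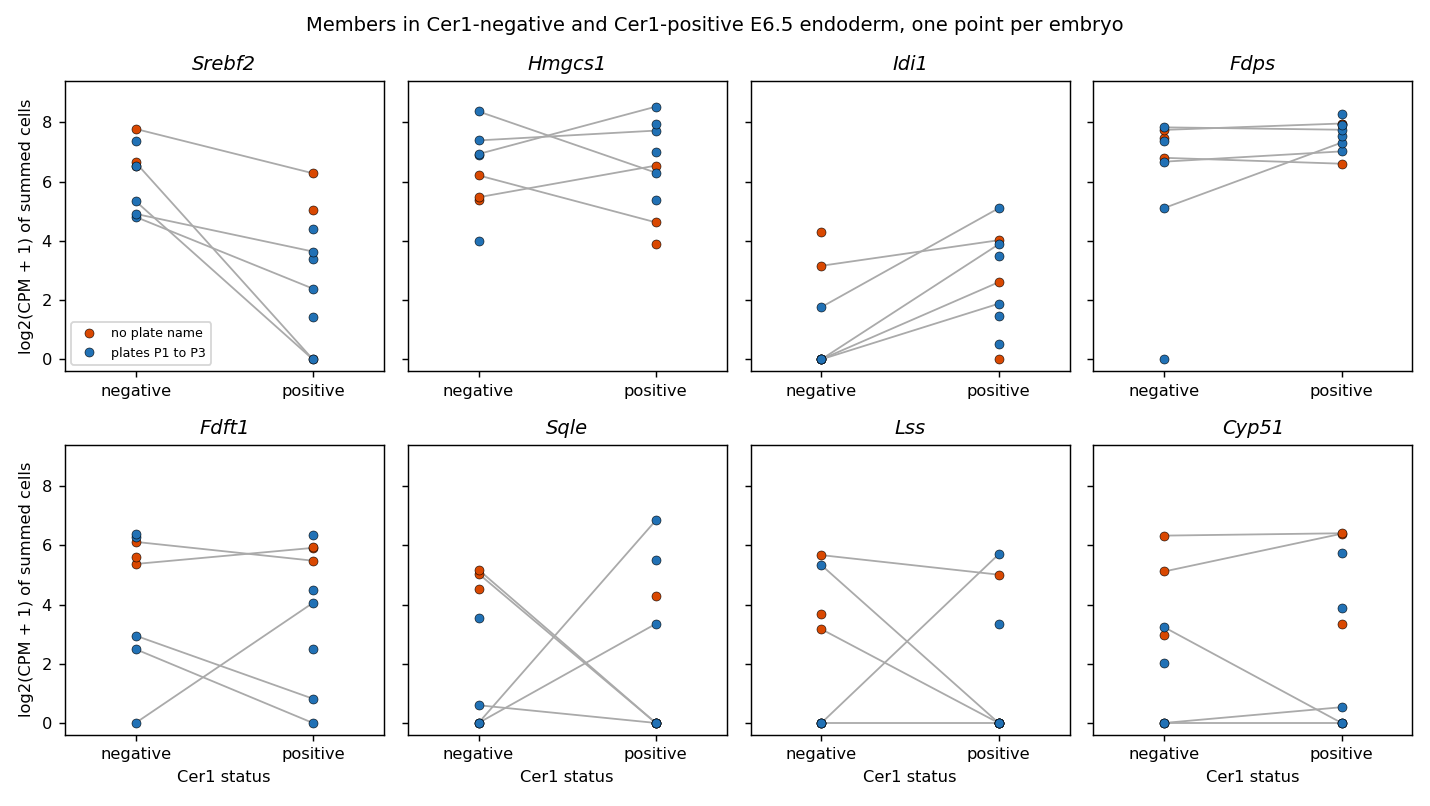
Members in Cer1-negative and Cer1-positive E6.5 endoderm-like cells as log2(CPM + 1) of the summed cells of an embryo; lines join sums of the same embryo and colours give the plates. All 5 lines fall for Srebf2 and all 5 rise for Idi1, and the groups of all members overlap.

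Single cells showed how evenly the members were detected. After thinning each cell to 300000 counts, which left out 40 of the 688 cells of the 6 classes, a PrE-like cell held counts of a median of 8 of the 8 members, an E4.5 or E5.5 epiblast-like cell 7, an E6.5 epiblast-like cell 6, an ICM cell 5 and an E6.5 endoderm-like cell 4. Cyp51 had a count in 16.9% of thinned ICM cells, 93.6% of PrE-like cells, 73.9% of E4.5 epiblast-like cells and 35.9% of E6.5 endoderm-like cells (16.2, 95.1, 73.9 and 46.3% before thinning). Lss had a count in 91.03% of thinned PrE-like cells and in 20.5% of E6.5 endoderm-like cells (91.5 and 19.5% before thinning). Fdps had one in 84.6 to 100% of cells of every class. These shares are over cells, and cells of an embryo are not replicates.

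Correlations between members over the cells of a class were weak. With embryo means removed, Spearman's rho between members had a median over the 28 pairs of 0.25 in 82 PrE-like cells, 0.20 in 23 E4.5 epiblast-like cells, 0.16 in 99 ICM cells, 0.13 in the E5.5 epiblast-like cells (35.9% of all 721), and 0.10 in both the E6.5 epiblast-like cells (25.5% of all 721) and 41 E6.5 endoderm-like cells. The medians of the members with all other expressed genes lay between 0.00 and 0.04, below the median between members in every class. The central 95% of those values ended at 0.17 to 0.45, above that median in every class. This end describes single pairs and is not a measure like a median. Of the 28 pairs, 27 were above 0 in PrE, 26 in E5.5 epiblast and 24 in E6.5 epiblast. There were 23 in the ICM, 23 in E4.5 epiblast and 16 in E6.5 endoderm. The points share libraries and depth, and sparse counts lower such values, so they are given as a description.

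Over the 48 sums, the profile of Srebf2 was closest to those of Cyp51 (rho 0.64) and Lss (0.54) among the enzymes and least like that of Hmgcs1 (-0.04). Outside the lists, Dgcr2 (0.78), Tgfbrap1 (0.69), Copa (0.67), Pramef8 (0.65) and Foxk1 (0.65) were most like Srebf2. The mean log2 level of the 7 enzymes was most like Cd164l2 (0.77), Syce1 (0.74), Def8 (0.73), Ogdhl (0.73) and Gm13242 (0.73). Within the lists, Fads1 (0.74), Msmo1 (0.67) and Srebf2 (0.67) were closest to it. These values run over classes and embryos together and share libraries and depth.

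The classes with 1 embryo of 3 or more cells are given as values, without a test. The 5 cells from wells labelled as visceral endoderm at E5.5 came from 1 embryo and summed to 6668780 counts. As shares of the total count without TMM, they held Srebf2 at 114.1 CPM (exact 95% binomial interval 106.2 to 122.5), Sqle at 198.1 CPM (187.5 to 209.1), Fdps at 281 CPM (269 to 294), Cyp51 at 36.6 CPM (32.1 to 41.5) and Lss at 14.2 CPM (11.5 to 17.4). The other class, 24 streak-like cells of 1 E6.5 embryo, had Srebf2 at 103.1 CPM (98.1 to 108.2), Fdps at 242.7 CPM (235.1 to 250.6), Hmgcs1 at 59.7 CPM (55.9 to 63.6) and Lss at 38.8 CPM (35.8 to 42.1). These intervals cover counting error only, and reads without molecular identifiers are not independent molecules.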

How the data were processed

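Single cells from wild-type embryos were sequenced with G&T-seq (Smart-seq2 chemistry, unstranded). Per the submitters' processing notes, the authors trimmed reads with Trim Galore 0.4.3 and aligned them with HISAT2 2.0.5 to GRCm38; they counted them on genes with SeqMonk. The values the authors deposited are whole-number read counts for every gene in every cell, not normalized, after they removed cells of low quality, trophoblast cells and wells of more than a pair of cells. All 721 columns match a sample title (66896 to 3792936 counts per cell), no 2 cells hold identical values, and genes on X and Y are not analysed here.

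Cells were clustered by steps after SC3 into 8 clusters, and those of E6.5 into 5, and named by markers within each labelled stage. At E6.5 a cluster with no raised set counted as epiblast-like where its epiblast mean exceeded its endoderm mean. Counts were summed per class and embryo and tested with edgeR 4.0.16 (TMM, filterByExpr, quasi-likelihood, Benjamini-Hochberg over all genes; R 4.3.3) in 1 fit over 6 classes, and in another over the Cer1 groups. To pass, a gene needed an absolute log2 fold change over 1 with an adjusted p up to 0.05. A fold against a group with no count is a bound against 3 counts over that group. The code was tested on simulated data.

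Sums of the same embryo come from the same animal, which pairs them. Their deviations from class means correlated at 0.02 to 0.10 at E4.5 (5 pairs) and 0.03 to 0.19 at E6.5 (7 pairs). Pairs from different embryos were at -0.05 to 0.02 at E4.5 (20 pairs) and at -0.10 to 0.19 at E6.5 (84 pairs). The study ties its batches to litters, and the labels name no litter for an embryo.

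The members and gene lists were chosen with earlier results of these data known. All 8 members are named in every comparison, other list genes where they passed, apart from some that enter the counts and medians and are not reported here, and the 5 genes outside the lists most like Srebf2 or the enzymes' mean. Nsdhl, Ebp and Mbtps2 are not analysed here. Promoters are RefSeq's. DESeq2 1.42.0, other scalings, filters, classes and left-out cells were alternatives.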

Additional observations from a re-analysis of the deposited data

Results flagged for a closer look

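The difference between lineages changed between stages for Fdps, with an interaction of -2.01 on the log2 scale. In 56 groups of 4 to 10 sums, 9 had a lowest or highest sum set apart from the rest by Dixon's test, which chance gives in about 1 of 20 groups. In the ICM these were the highest of 10 sums of Cyp51, at 52.6 CPM, and of Hmgcs1, at 196.9 CPM. The lowest of 8 sums of Lss in E5.5 epiblast was at 16.9 CPM, and the highest of 7 sums of Srebf2 in E6.5 endoderm, from an embryo titled E6.75, at 167.4 CPM. In Cer1-negative endoderm the highest of 8 sums of Cyp51 was at 79.3 CPM and that of Idi1 at 18.6 CPM. In Cer1-positive endoderm the highest of 9 sums of Idi1 was at 33.4 CPM, that of Sqle at 113.5 CPM and that of Srebf2 at 76.96 CPM. The cause of these values was not tested.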

How the results depend on the processing

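Not every setting that changed a count is named in this paragraph. The number of members passing from the ICM to E4.5 epiblast (4) was 1 with Ward clusters, 1 with sums of at least 1 cell, 1 with sums of at least 5 cells, 2 with a log2 limit of 2, and 1 to 3 without single E4.5 embryos. From the ICM to PrE (2) it was 4 with only E6.5 cells without a plate name and 4 with sums of at least 5 cells. There Hmgcs1 passed as well without E4.5 embryo 1 and without embryo 2, with a log2 fold change of 1.14 in both. Between PrE and epiblast at E4.5 (0) it was 1 with DESeq2, 1 with the embryo as a replicate block and 1 with sums of at least 5 cells. From E5.5 to E6.5 epiblast (0) it was 1 with same-numbered embryos merged and 1 with sums of at least 5 cells. From E4.5 PrE to E6.5 endoderm (4) it was 1 with only E6.5 cells without a plate name, where 2 endoderm sums are left. On plates P1 to P3 alone Srebf2 passed as well, with a log2 fold change of -2.60. Fdps, at -1.66, did not pass a log2 limit of 2. Between endoderm and epiblast at E6.5 (0) it was 1 with DESeq2, without doubles, with embryos merged and with sums of at least 1 or at least 5 cells. For the interaction (1) it was 0 with only cells without a plate name, 0 with sums of at least 1 cell, 2 with sums of at least 5 cells, and 0 to 1 without single E4.5 embryos. Over all genes, the share that passed also fell in the settings named for the ICM to E4.5 epiblast. It fell as well from PrE to endoderm with only E6.5 cells without a plate name. From the ICM to PrE it rose with only E6.5 cells without a plate name and fell with sums of at least 5 cells. In the other comparisons it moved with the number of members in some settings and against it in others. The cause of these changes was not tested. The replicate block changed no other call of a member. The median interaction over all genes was -0.40, and -0.25 with relative log expression factors. Leaving out the embryo with haemoglobin counts was chosen after seeing the data. Sums of few cells limit the low members, of which Lss and Idi1 were not tested between the Cer1 groups.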
